A study of Mus musculus with 12 samples.

Results

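Edn1 and 5 further genes for growth factors and a receptor were followed in bone marrow derived macrophages (BMDMs) given medium conditioned by neuroblastoma cells and an inhibitor of the kinase Syk. The 6 genes, of 54232 gene IDs in the count table, were Edn1, Hbegf, Pdgfa, Pdgfb, Igf1 and Igf1r. They were chosen by their roles and by measured values of these same libraries, among them the place of Edn1 near the top of the rises in medium conditioned by NB9464 cells. The differences between conditioned medium and no conditioned medium are therefore given as a description, with no p. Tests of the inhibitor, on Edn1 as well as on the 5 further genes, use some of the same libraries. Their p values are thus not independent of the choice of genes. All 6 genes passed the filter of at least 10 counts in at least 2 libraries, Edn1 through the treated groups and Hbegf through the groups without the inhibitor.

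The BMDMs came from C57BL/6 mice, and the labels name no transgene or deletion in any group. They were cultured for 5 days and then kept for 24 h in tumor-conditioned medium (TCM) or without it. Some also received 500 nM R788 (fostamatinib), a prodrug of a Syk inhibitor. NB9464 is a mouse neuroblastoma line with amplified MYCN and NBT3L is one without. The 6 groups of 2 libraries were NS (neither TCM nor R788), R788 alone, either TCM alone (NB9464 TCM or NBT3L TCM), and R788 on top of either TCM (NB9464 TCM + R788, or NBT3L TCM + R788). The sources used here do not state the medium given to NS cells, the vehicle of R788, how NBT3L TCM was made, or whether the 2 libraries of a group came from different mice. The study states that NB9464 TCM was collected in DMEM without serum, and that BMDMs were grown in RPMI with serum and M-CSF. The base medium and the serum may therefore have differed between TCM and NS, and a p value measures the spread between libraries, which may be technical.

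Endothelin-1, the product of Edn1, is a vasoconstrictor peptide known mainly from endothelium, which is also made by macrophages. It is cut from its precursor by converting enzymes such as ECE1 and acts on the receptors EDNRA and EDNRB. HB-EGF, from Hbegf, is a membrane-bound ligand of EGFR and ERBB4 that ADAM proteases release. The A and B chains of platelet-derived growth factor, from Pdgfa and Pdgfb, act on PDGFRA and PDGFRB, found on fibroblasts and on the pericytes of vessels. IGF-1, from Igf1, is held by binding proteins and signals through IGF1R. Macrophages are a known source of IGF-1 in tissue repair and in tumors.

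An annotated start of transcription was looked at for 2 genes that moved in opposite directions with TCM, to show the bases next to it. RefSeq promoters on GRCm38.p6 were matched for 4 of the 6 genes, and the 250 bases before the annotated start were searched on both strands. For Edn1 that start was the first base of the gene as placed below, 42301476. For Igf1 it was a RefSeq start inside the gene as placed below, which begins at 87858265. The bases before that first base of Igf1 were not searched. The letters were TGANTCA for AP-1, a pair of proteins that answer to growth signals. For the hypoxia factor HIF they were ACGTG, which other factors bind as well. For NF-kB, which answers to inflammation, they were GGGNNNNNCC. For the GATA family of blood cell factors they were GATAA. The last pattern was the TATAAA of a TATA box. Capitals mark matches.
Edn1, chr13:42301226-42301475, plus strand: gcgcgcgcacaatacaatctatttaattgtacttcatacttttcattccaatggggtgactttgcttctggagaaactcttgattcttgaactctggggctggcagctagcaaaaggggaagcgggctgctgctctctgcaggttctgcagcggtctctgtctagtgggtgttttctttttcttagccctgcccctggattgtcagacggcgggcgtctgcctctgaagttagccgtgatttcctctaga
Igf1, chr10:87860861-87861110, plus strand: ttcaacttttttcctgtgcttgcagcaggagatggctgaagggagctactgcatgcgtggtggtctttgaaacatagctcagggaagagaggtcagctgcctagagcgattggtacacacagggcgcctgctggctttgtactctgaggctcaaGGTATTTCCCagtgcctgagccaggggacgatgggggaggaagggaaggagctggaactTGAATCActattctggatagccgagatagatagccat
None of the 5 letter patterns was in the Edn1 window. The Igf1 window, which lies inside the gene, held an AP-1 match 37 to 31 bases before the RefSeq start used and an NF-kB match 96 to 87 bases before it. AP-1 matches were in 6.75% and NF-kB matches in 45.8% of 32851 promoter windows of this length, so the NF-kB letters are common. GC made up 50.4% of the Edn1 window and 52.8% of the Igf1 window, close to the median over all windows of 52.4%, while the Igf1r window was 77.6% GC. A match is a run of letters, not a site shown to be bound, and a window without one says nothing of the factor.

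Edn1 (ENSMUSG00000021367, plus strand, chromosome 13, 42301476 to 42307990 on GRCm38) had no read in NS and was highest with TCM. The 2 NS libraries held 0 and 0 counts, the NB9464 TCM libraries 590 and 560, and the NBT3L TCM libraries 268 and 325. With R788 the counts were 26 and 28 without TCM, 101 and 109 in NB9464 TCM, and 112 and 132 in NBT3L TCM. The gene was thus read in all 10 libraries that had received TCM, R788 or both, and in neither library that had received none. A count of 0 allows up to 3 counts per library, for counting error only.

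As normalized counts, which are counts divided by the size factor of the library, Edn1 averaged 542 ± 31.2 (SD, n = 2) in NB9464 TCM and 342 ± 14.1 in NBT3L TCM. Against a floor of 3 counts in each NS library, it was at least 192-fold higher in NB9464 TCM and at least 121-fold higher in NBT3L TCM. R788 alone gave 23.0 ± 0.902, at least 8.12-fold above the floor. Dividing counts by 2, tried because even counts were in excess, lowers these bounds to at least 95.8-fold, 60.3-fold and 4.06-fold.

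R788 lowered Edn1 in both conditioned media while leaving it well above NS. In NBT3L TCM it fell from 342 to 126 ± 9.81 normalized counts, a log2 fold change of -1.44 ± 0.29 (SE; adjusted p = 1.65e-05, Wald test of DESeq2, adjusted by Benjamini-Hochberg over 16281 genes). A change is called when that value is under 0.05. Neither of the means compared came from NS or NB9464 TCM libraries, although these entered the size factors and the shared estimate of spread. The NBT3L TCM libraries, where Edn1 was high, did enter the test. Results of these data were known when the gene was chosen, so this p is not independent of the choice either. The change stayed called under all 18 alternative settings, which were other tools, scalings and filters, a fit of only the libraries compared, and each library left out in turn. In NB9464 TCM the level was 111 ± 14.6 with R788, which gives a log2 fold change of -2.29 ± 0.29, given without a p because the NB9464 TCM libraries had helped to choose the gene.

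The order of Edn1 from high to low was NB9464 TCM, NBT3L TCM, NBT3L TCM + R788, NB9464 TCM + R788, R788 and NS. Neighbours did not overlap except the 2 groups with TCM and R788, whose libraries held between 100.5 and 133 normalized counts. NB9464 TCM lay above NBT3L TCM by a log2 difference of 0.67 ± 0.28. R788 thus went with higher Edn1 without TCM and lower Edn1 with TCM. No fitted value of that difference is given, since it would rest on a group at 0. The NS and NB9464 TCM libraries had also helped to choose the gene, which favors such a pattern.

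**Figure D1:**
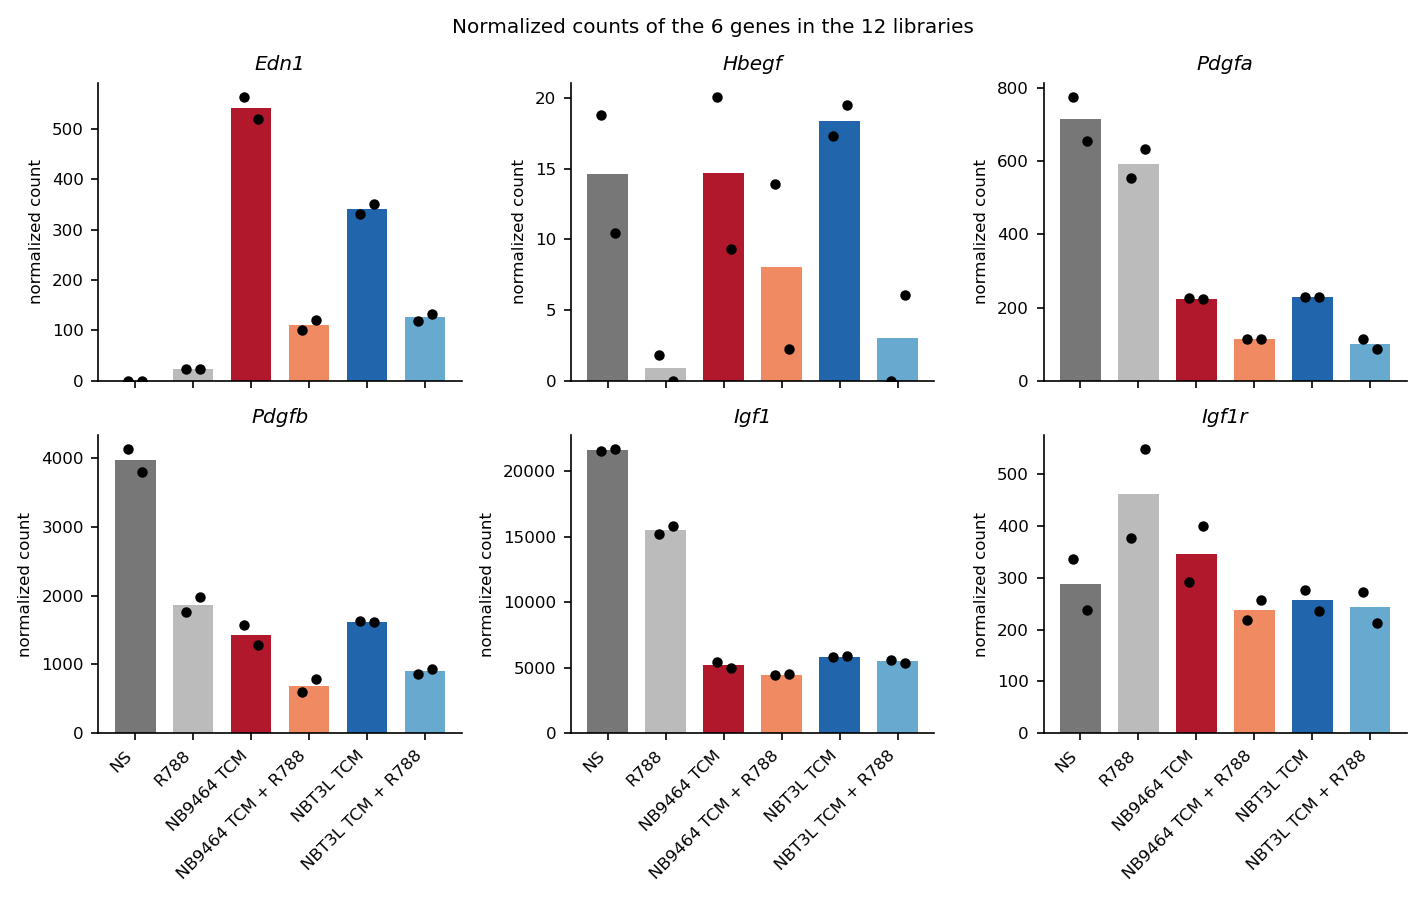
Normalized counts (vertical axes, from 0, each panel on its own scale) of the 6 genes in the 6 groups; bars are means and points are the 2 libraries of each group. Edn1 is at 0 in NS and highest in NB9464 TCM at 542, while Pdgfa, Pdgfb and Igf1 are highest in NS.

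Some markers of other cells also differed between the groups in which Edn1 differed. Of 10 neuroblastoma markers, Mycn had 0 counts in NS and R788, 7 to 37 in the 4 libraries of NB9464 TCM with or without R788, and 8 and 12 in NBT3L TCM. Dbh had 12 to 20 counts in the 4 libraries of NBT3L TCM with or without R788 and 0 in all others. Th and Chga were at 0 in every library. Elavl4, the most abundant of the list, had 258 and 245 counts in NS, 195 and 275 in NB9464 TCM, 349 and 296 in NBT3L TCM and 138 to 238 in the groups with R788. The 10 markers summed to 4.89 to 5.12 CPM (the share of a library's counts, scaled to a common total) in NS, 4.14 to 5.39 in NB9464 TCM, 7.05 to 8.83 in NBT3L TCM and 2.80 to 3.26 in R788. With R788 they summed to 5.07 to 5.08 CPM in NB9464 TCM and 4.98 to 5.65 in NBT3L TCM. The part of these transcripts in the Edn1 counts was not tested. In NB9464 TCM, Mycn had 7 and 25 counts without R788 and 23 and 37 with it, while Edn1 had 590 and 560 without and 101 and 109 with it. In the R788 libraries without TCM, where Edn1 had 26 and 28 counts, Mycn, Dbh, Hand2 and Isl1 were at 0 and Elavl4 had 138 and 184.

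Endothelial cells are a known source of Edn1, and their part in the Edn1 counts was not tested. The summed level of 7 endothelial markers is given for each group. It ranged from 56.1 to 56.8 CPM in NS, 22.6 to 22.9 in NB9464 TCM and 23.1 to 26.6 in NBT3L TCM, and 68.7 to 95.7 in R788. In the groups with TCM and R788 it was 16.7 to 18.5 CPM (NB9464) and 18.4 to 18.8 (NBT3L). It was thus lower with TCM, where Edn1 was higher, higher with R788 alone, where Edn1 was also higher, and lower with R788 in TCM, where Edn1 was lower. Most of the sum was Vwf and Kdr, while Tek had 2 counts or fewer and Cldn5 4 or fewer in every library. The 7 fibroblast markers summed to 27.8 to 36.3 CPM in NS and 31.3 to 39.8 over both TCM groups, with 61.8 to 73.1 in R788, 42.2 to 48.9 in NB9464 TCM + R788 and 67.1 to 67.2 in NBT3L TCM + R788. The 6 neutrophil markers summed to 81.8 to 91.1 CPM in NS and 157 to 186 over the TCM groups, where S100a8 had the most counts, with 56.6 to 84.0 in R788 and 130.1 to 142 over the groups with TCM and R788, and Ly6g had 4 counts or fewer everywhere. The 8 macrophage markers, with Adgre1 and Csf1r among them, were all read in every group and summed to between 34020 and 48713 CPM. The 6 lymphoid and dendritic markers stayed at or under 1.55 CPM. In these bulk samples, fewer cells of a type and less RNA per cell cannot be told apart.

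The exons of Edn1 share 35 bases with those of Gm47118 on the opposite strand. Since it is not stated whether counting used the strand, reads there cannot be assigned, but Gm47118 had 8 counts in 1 NB9464 TCM library and 0 in the 11 others.

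Hbegf (ENSMUSG00000024486, chromosome 18, minus strand, 36504927 to 36515805) was barely read in any group. The counts were 20 and 11 in NS, 21 and 10 in NB9464 TCM, 14 and 18 in NBT3L TCM, 2 and 0 in R788, 14 and 2 in NB9464 TCM + R788, and 0 and 6 in NBT3L TCM + R788. The 3 groups without R788 overlapped, at 10 to 21 counts. Without TCM, summed Hbegf counts were 31 in NS against 2 with R788, a ratio of 17.2 with a 95% exact interval of 4.38 to 148 that covers counting error only. With the spread between libraries included, that difference did not pass the test (adjusted p = 0.0586, DESeq2), and it did pass without the first R788 library (SJ7; adjusted p = 0.0377) or without the first NBT3L TCM + R788 library (SJ11; adjusted p = 0.0488). In NBT3L TCM the sums were 32 without and 6 with R788, a ratio of 5.97 with an interval of 2.46 to 17.5, and in NB9464 TCM 31 and 16, whose ratio of 1.74 has an interval of 0.923 to 3.41. DESeq2 gave no adjusted p for these, since its filter left such low counts out. The exact intervals take every count as independent, and halved counts were not used for them although even counts were in excess. They may therefore be too narrow. Hbegf also passed the count filter only through the groups without R788, where it was higher. The ratios and intervals are thus a description of the counts.

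Pdgfa (ENSMUSG00000025856, chromosome 5, minus strand, 138976014 to 138997370) was lower with TCM and lower again with TCM and R788 together. Normalized counts were 777 and 654 in NS, 226 and 222 in NB9464 TCM, and 229 and 229 in NBT3L TCM. With R788 they were 554 and 633 without TCM, 114 and 113 in NB9464 TCM, and 115 and 85.4 in NBT3L TCM. All TCM libraries lay below all libraries without TCM, and all TCM libraries with R788 lay below all TCM libraries without it.

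Against NS, the log2 fold change of Pdgfa was -1.68 ± 0.22 in NB9464 TCM and -1.64 ± 0.23 in NBT3L TCM, and the media differed by -0.034 ± 0.23 (95% interval -0.49 to 0.42). R788 lowered Pdgfa by a log2 fold change of -0.98 ± 0.24 in NB9464 TCM (adjusted p = 0.000731, DESeq2) and -1.20 ± 0.25 in NBT3L TCM (adjusted p = 2.59e-05). Without TCM the change was -0.27 ± 0.22 (adjusted p = 0.400), with an interval of -0.70 to 0.16. The effect of R788 in NBT3L TCM was stronger than without TCM by -0.93 ± 0.33 (adjusted p = 0.0387), a call lost with edgeR (adjusted p = 0.0556), with halved counts (0.0578) and without any 1 library other than SJ7 and SJ11 (adjusted p of up to 0.269). In NB9464 TCM that difference was -0.71 ± 0.33 (adjusted p = 0.131). Exons of Pdgfa share 813 bases with the antisense gene 6330403L08Rik, which had 60 to 352 counts, so a part of the reads cannot be assigned between them if the strand was not used.

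Pdgfb (ENSMUSG00000000489, chromosome 15, minus strand, 79995874 to 80014977) fell with R788 in every medium. Normalized counts were 4126 and 3801 in NS and 1758 and 1976 in R788. They were 1566 and 1283 in NB9464 TCM against 598 and 782 with R788, and 1631 and 1613 in NBT3L TCM against 856 and 941 with R788. No neighbours overlapped in the order, which ran from NS over R788 to both TCMs and then to both TCMs with R788, with NBT3L above NB9464 each time.

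R788 lowered Pdgfb by log2 fold changes of -1.09 ± 0.14 without TCM (adjusted p = 4.26e-14, DESeq2), -1.05 ± 0.14 in NB9464 TCM (adjusted p = 7.78e-12) and -0.85 ± 0.14 in NBT3L TCM (adjusted p = 4.63e-08). Each was called under all 18 alternatives, and without the second R788 library (SJ8), which had the fewest genes with counts, the first was -1.17. The effect in NB9464 TCM minus that without TCM was 0.039 ± 0.20, with an interval of -0.35 to 0.42. In NBT3L TCM it was 0.23 ± 0.20, with an interval of -0.15 to 0.62. Against NS, the level was lower by log2 fold changes of -1.48 ± 0.14 in NB9464 TCM and -1.29 ± 0.14 in NBT3L TCM, and the media differed by -0.19 ± 0.14 (adjusted p = 0.459, DESeq2).

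Igf1 (ENSMUSG00000020053, chromosome 10, plus strand, 87858265 to 87937042) had the highest counts of the 6 genes and the highest counts per length. Normalized counts were 21518 and 21674 in NS, 5446 and 5007 in NB9464 TCM, and 5786 and 5905 in NBT3L TCM. With R788 they were 15193 and 15844 without TCM, 4422 and 4493 in NB9464 TCM, and 5624 and 5351 in NBT3L TCM. Both NS libraries lay above both R788 libraries, and these lay far above all 8 TCM libraries. Only NBT3L TCM + R788 and NB9464 TCM overlapped among neighbours in the order.

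Against NS, Igf1 was 4.13-fold lower in NB9464 TCM (log2 fold change -2.05 ± 0.061) and 3.69-fold lower in NBT3L TCM (-1.89 ± 0.061). R788 without TCM lowered it by -0.48 ± 0.060 (adjusted p = 3.71e-14, DESeq2), and by -0.51 without the second R788 library (SJ8). In NB9464 TCM the change with R788 was -0.23 ± 0.062 (adjusted p = 0.00242), which was no longer called without the first NB9464 TCM library (SJ3; adjusted p = 0.136) or the first NB9464 TCM + R788 library (SJ9; adjusted p = 0.0646). The change in NBT3L TCM, -0.091 ± 0.062, missed the threshold (adjusted p = 0.385), and its interval was -0.21 to 0.030.

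The effect of R788 on Igf1 was weaker in NBT3L TCM than without TCM by 0.39 ± 0.086 on the log2 scale (adjusted p = 0.000188, DESeq2), a call kept under all 18 alternatives. In NB9464 TCM it was weaker by 0.25 ± 0.086 (adjusted p = 0.0306), a call lost with edgeR (adjusted p = 0.0834), in a fit of only the libraries compared (0.0755) and without any 1 library other than SJ3 and SJ8 (adjusted p of up to 0.187). The 2 media differed by -0.16 ± 0.062 for Igf1 (adjusted p = 0.0651), and this was called without SJ3 (adjusted p = 0.0363) or without either R788 library (adjusted p = 0.0320 and 0.0318). For Pdgfb no such difference between media passed the test.

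Igf1r (ENSMUSG00000005533, chromosome 7, plus strand, 67952827 to 68233668), which encodes the receptor of IGF-1, had no order of groups that stood clear of the spread between libraries. Normalized counts were 337 and 239 in NS, 377 and 548 in R788, 292 and 401 in NB9464 TCM, and 219 and 258 in NB9464 TCM + R788. They were 277 and 236 in NBT3L TCM and 274 and 213 in NBT3L TCM + R788. Every group overlapped the next in the order. The log2 fold change against NS was 0.27 ± 0.29 in NB9464 TCM and -0.17 ± 0.29 in NBT3L TCM.

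R788 gave Igf1r log2 fold changes of 0.68 ± 0.28 without TCM (adjusted p = 0.0534, DESeq2), -0.54 ± 0.29 in NB9464 TCM (adjusted p = 0.203) and -0.076 ± 0.29 in NBT3L TCM (adjusted p = 0.924). The first was called with a mean of at least 50 counts (adjusted p = 0.0269), with halved counts (0.0440), without the first NS library (SJ1; 0.95, adjusted p = 0.0308) and without the first R788 library (SJ7; 0.93, adjusted p = 0.0180), and it was 0.39 without SJ8 (adjusted p = 0.428). The difference between NB9464 TCM and no TCM in the effect of R788 passed the test at -1.23 ± 0.40 (adjusted p = 0.0203). It was lost without SJ2, SJ4, SJ8 or SJ9, with adjusted p of 0.163, 0.147, 0.138 and 0.112. The study displays Igf1r among immunosuppressive genes of these samples, so this difference is not independent evidence. In NBT3L TCM the difference was -0.76 ± 0.41 (adjusted p = 0.238).

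Divided by the length the table gives, so that genes can be set side by side, the levels in NS were 2181 normalized counts per kb for Igf1, 953 for Pdgfb, 229 for Pdgfa, 17.2 for Igf1r, 6.16 for Hbegf and 0 for Edn1. In NB9464 TCM they were 528 for Igf1, 342 for Pdgfb, 254 for Edn1, 71.8 for Pdgfa, 20.6 for Igf1r and 6.19 for Hbegf. Edn1 thus went from the lowest of the 6 to a level between Pdgfb and Pdgfa. In NB9464 TCM + R788 it stood at 51.8 per kb, above Pdgfa at 36.5. The length of Hbegf in the table, 2373 bases, was shorter than its merged exons in GENCODE M21, 4834 bases, so its level per kb is uncertain.

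**Figure D2:**
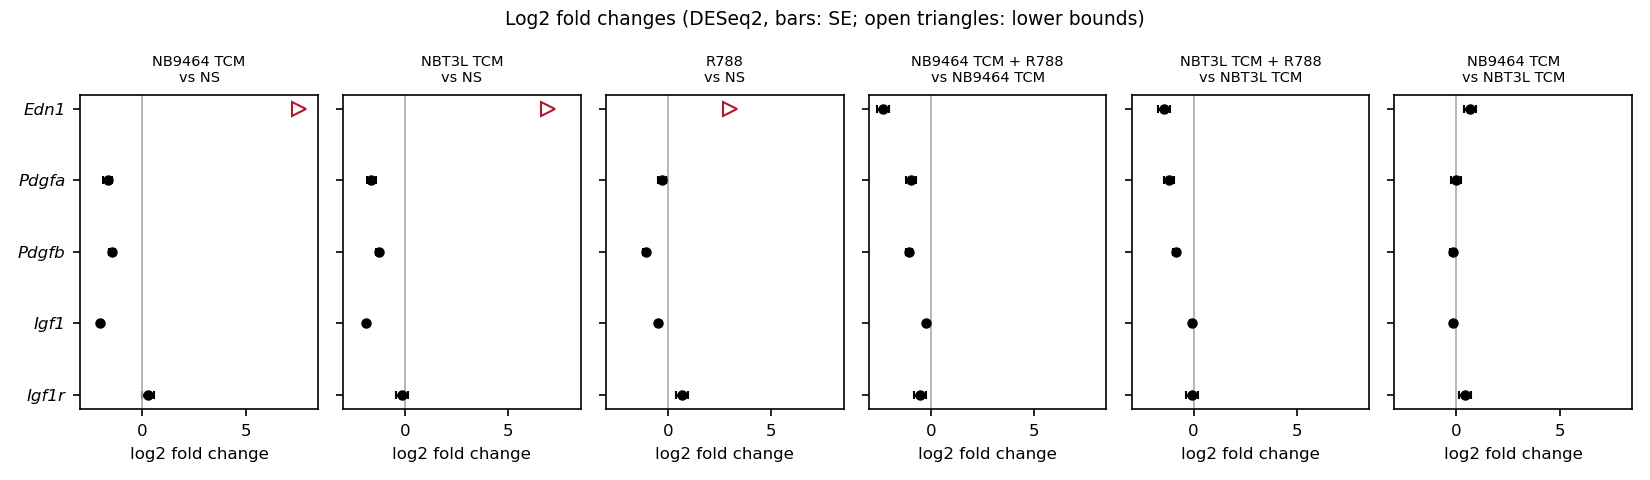
Log2 fold changes (horizontal axes) of 5 of the 6 genes in the 6 comparisons, with points for DESeq2 estimates, bars for the SE and open triangles for the lower bounds of Edn1 against NS at 0. Hbegf is left out for its low counts; Pdgfb lies near -1 in all 3 comparisons with R788, from -1.09 to -0.85, while Edn1 is to the right with R788 alone and to the left with R788 in TCM.

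Read against the share of all 16281 tested genes that were called, the members stood as follows. In NB9464 TCM, where 17.2% of genes were called higher and 16.9% lower than in NS, and in NBT3L TCM, where these were 18.0% and 17.3%, Edn1 was higher and Pdgfa, Pdgfb and Igf1 were lower, and nothing is read from that count because the choice of genes used those contrasts. With R788 alone, 11.6% of genes were called higher and 15.0% lower, and 2 of the 5 genes other than Edn1 were lower, Pdgfb and Igf1. With R788 in NB9464 TCM, 8.70% of genes were called lower, and 3 of those 5 were, Pdgfa, Pdgfb and Igf1. In NBT3L TCM it was 7.24%, and Pdgfa and Pdgfb were lower, as was Edn1. The difference in the effect of R788 between NB9464 TCM and no TCM was called for 12.5% of genes in either direction, Igf1 and Igf1r among them. Between NBT3L TCM and no TCM it was called for 10.1%, Pdgfa and Igf1 among them. Between the 2 media it was called for 0.706% of genes, and the 5 members had adjusted p between 0.806 and 0.988.

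The genes around these factors were taken from 5 lists of 70 genes in all, of which 53 passed the filter. In NB9464 TCM 6 were called higher and 10 lower than in NS, against 17.2% and 16.9% of all genes. In NBT3L TCM it was 11 higher and 11 lower, against 18.0% and 17.3%. R788 alone gave 9 higher and 4 lower, against 11.6% and 15.0%. With R788 in NB9464 TCM, 2 were higher, against 5.79% of all genes, and 5 lower, against 8.70%. With R788 in NBT3L TCM, 4 were higher, against 5.33%, and 6 lower, against 7.24%. NB9464 TCM differed from NBT3L TCM by 1 higher (3.69% of all genes) and 9 lower (5.72%), of which edgeR called 4 in all. The median log2 fold change over the 53 genes was between -0.19 and 0.30 in the 6 comparisons, where that of all genes was within 0.021 of 0. The genes of counts of 5 or fewer that follow were in part named after their values were seen.

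In the endothelin list, 4 of 7 genes were tested. The other ligands, Edn2 and Edn3, had at most 16 and 18 counts in any library, and the receptor gene Ednra at most 16. Ednrb, the gene of the other endothelin receptor, rose with R788 alone, from 225 ± 57.2 to 637 ± 33.1 normalized counts (log2 fold change 1.50 ± 0.29, adjusted p = 3.62e-06, DESeq2). Without and with R788, Ednrb averaged 250 and 214 normalized counts in NB9464 TCM, and 331 and 357 in NBT3L TCM. The difference from no TCM in the effect of R788 was -1.72 ± 0.42 (adjusted p = 0.000693) and -1.39 ± 0.42 (adjusted p = 0.00996), the second lost without SJ2, SJ6 or SJ11 (adjusted p = 0.0995, 0.0546 and 0.0563). Ece1, whose enzyme makes the active peptide, had 1969 to 3454 counts and was higher in NBT3L TCM than in NS (0.46 ± 0.11). It was also higher than in NB9464 TCM, a call lost with edgeR (adjusted p = 0.0864) and without SJ3, SJ6 or SJ11 (adjusted p = 0.483, 0.442 and 0.0505).

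In the EGF family list, 14 of 18 genes were tested, and the ligands were scarce. Areg, Ereg, Btc, Tgfa and Epgn had at most 30 counts in any library and Erbb4 had none in all 12. Egf had 17 to 72 counts and Nrg1 0 to 46, against 0 to 21 for Hbegf. Egfr was higher in NBT3L TCM, at 291 ± 30.3 normalized counts, than in NS, at 78.3 ± 4.53 (1.89 ± 0.42, adjusted p = 2.76e-05, DESeq2). It was also higher than in NB9464 TCM, at 122 ± 35.8 (adjusted p = 0.0218), a call lost with edgeR (adjusted p = 0.0580) and without SJ4, SJ5 or SJ6 (adjusted p = 0.252, 0.113 and 0.250).

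Of the genes that process or bind HB-EGF, Adam10, Adam17, Rhbdf2 and Cd9 had between 3786 and 24690 counts per library, and Rhbdf1 had 60 to 242. Adam10, a protease that sheds EGF ligands, was lower by -0.83 ± 0.056 in NB9464 TCM and -0.84 ± 0.056 in NBT3L TCM. Adam17, another such protease, was higher by 0.22 ± 0.061 in NBT3L TCM, and higher with R788 in all 3 media, by 0.17 to 0.24. Each of these 4 calls on Adam17 was lost without 1 or more single libraries, with an adjusted p of 0.0640 in NBT3L TCM without SJ6 and of 0.247 with R788 alone without SJ8, where the change was 0.082. Rhbdf2, which helps ADAM17 reach the cell surface, was higher in both TCMs (0.73 ± 0.066 and 0.89 ± 0.066) and lower with R788 in both (-0.22 ± 0.066 and -0.22 ± 0.066). With R788 alone Rhbdf2 was higher (0.35 ± 0.067), and its effect of R788 in either TCM was below that without TCM by -0.57 ± 0.094, a difference called in both media under all 18 alternatives. The falls of Rhbdf2 were lost in NB9464 TCM without SJ3, SJ4 or SJ9 (adjusted p = 0.0780, 0.0702 and 0.146) and in NBT3L TCM with edgeR (0.0511) and without SJ5, SJ6 or SJ12 (0.0598, 0.154 and 0.233). Cd9, a tetraspanin that binds the HB-EGF precursor, was lower in both TCMs (-1.04 ± 0.077 and -0.95 ± 0.077) and lower with R788 in all 3 media, by -0.59 to -0.43.

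In the PDGF list, 6 of 8 genes were tested. The ligand genes Pdgfc and Pdgfd had at most 119 and 8 counts, against 601 to 4393 for Pdgfb. Furin, a protease that cuts PDGF precursors, was lower in both TCMs (-0.25 ± 0.077 and -0.29 ± 0.077) and higher with R788 alone (0.47 ± 0.077, adjusted p = 1.93e-08, DESeq2). The falls of Furin were lost without SJ1 in both TCMs (adjusted p = 0.145 and 0.0619), without SJ3 in NB9464 TCM (0.116) and without SJ5 in NBT3L TCM (0.0612). Pdgfrb, the receptor gene, had 80 to 309 counts, and its effect of R788 in NB9464 TCM was above that without TCM by 1.51 ± 0.50 (adjusted p = 0.0194), a call lost without SJ1, SJ4 or SJ9 (adjusted p = 0.133, 0.125 and 0.160).

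In the IGF list, 9 of 15 genes were tested, and the binding protein gene Igfbp4 was lower with TCM, as Igf1 was, and higher with R788. Igfbp4 had 12426 ± 553 normalized counts in NS. It fell to 3457 ± 158 in NB9464 TCM (-1.85 ± 0.065, adjusted p = 6.79e-177, DESeq2) and 3569 ± 62.5 in NBT3L TCM (-1.80 ± 0.065). With R788 alone it rose to 20046 ± 130.3 (0.69 ± 0.063, adjusted p = 2.84e-26), where Igf1 fell. In TCM it rose with R788 by 0.21 ± 0.066 and 0.26 ± 0.066, calls lost in NB9464 TCM without SJ3 or SJ9 (adjusted p = 0.208 and 0.215) or with only the libraries compared (0.0795), and in NBT3L TCM without SJ6 or SJ11 (0.0667 and 0.0896).

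Igfbp5, for another binding protein, had the largest called fold change of this list with TCM and was named after its values were seen, its mean being under the minimum for naming. It had 6 to 16 counts in NS and 183 to 201 in NBT3L TCM (4.42 ± 0.77, adjusted p = 6.61e-08, DESeq2), called under all 18 alternatives. In NB9464 TCM it had 28 to 46 counts (adjusted p = 0.0707 against NS).

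Igfbp7 was higher in both TCMs (1.08 ± 0.22 and 1.22 ± 0.22), from 191 ± 33.4 normalized counts in NS. Irs2, an adaptor of IGF and insulin receptors, was lower in both (-1.05 ± 0.22 and -0.77 ± 0.22), and lower with R788 in NBT3L TCM (-0.79 ± 0.23). The fall of Irs2 with NBT3L TCM was lost without SJ6 (adjusted p = 0.0827) and that with R788 without SJ5 or SJ11 (0.199 and 0.114). Insr, the insulin receptor gene, was higher with R788 alone (0.83 ± 0.12, adjusted p = 7.77e-11, DESeq2). Igf2r, whose product takes IGF-2 to the lysosome, was lower with R788 in NB9464 TCM (-0.49 ± 0.082) and in NBT3L TCM (-0.27 ± 0.081), the latter lost without SJ6, SJ11 or SJ12 (adjusted p = 0.329, 0.118 and 0.0594). Igf2 had at most 8 counts and Igfbp1 and Igfals none in all 12 libraries, so these were not detected at this depth.

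**Figure D3:**
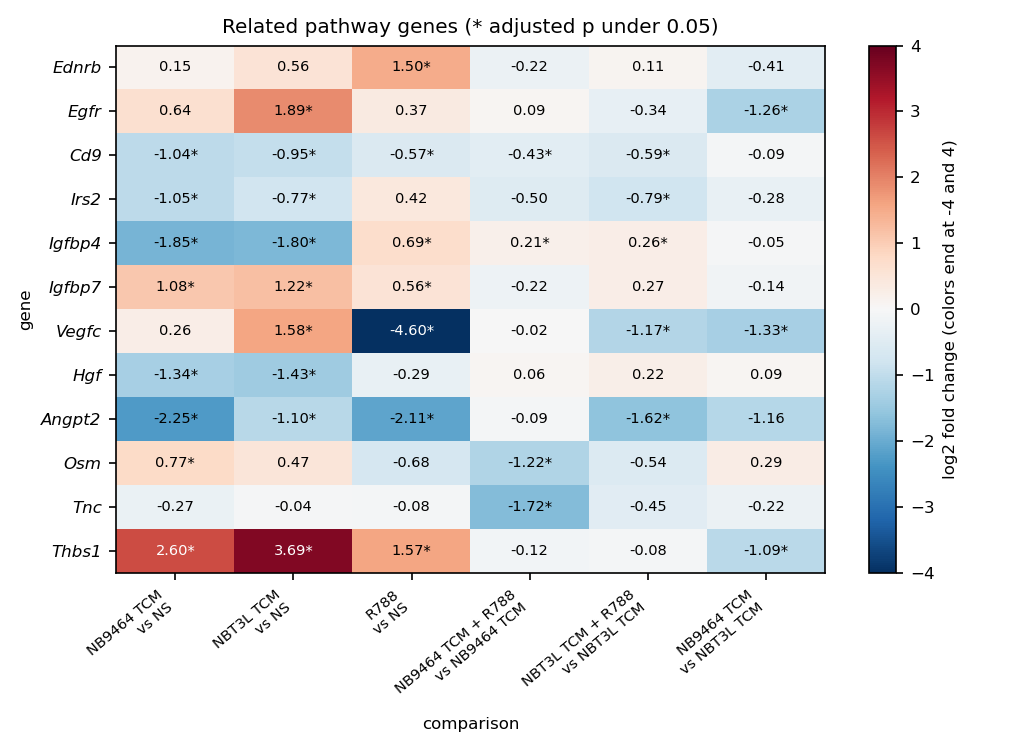
Log2 fold changes (color and number, with red for higher) of the 12 related genes that passed the naming rule, in rows, over the 6 comparisons, in columns; asterisks mark an adjusted p under 0.05 (DESeq2). Thbs1 has the highest values, 2.60 and 3.69 in the TCMs against NS, and Vegfc the lowest, -4.60 with R788 alone.

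Among other secreted factors, 20 of 22 were tested. Thbs1, for the matrix protein thrombospondin-1 that restrains vessel growth, had 4104 ± 51.0 normalized counts in NS. It rose to 24966 ± 1416 in NB9464 TCM (2.60 ± 0.059) and 52991 ± 259.6 in NBT3L TCM (3.69 ± 0.059), and by 1.57 ± 0.059 with R788 alone. Thbs1 was 1.09 lower on the log2 scale in NB9464 TCM than in NBT3L TCM. Hgf, for hepatocyte growth factor, fell in both TCMs (-1.34 ± 0.27 and -1.43 ± 0.27), with 544 to 692 counts in NS and 167 to 263 in the TCM libraries.

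Angpt2 and Vegfc, for angiopoietin-2 and the lymphatic growth factor VEGF-C, both fell with R788 alone. Angpt2 had 398 and 413 counts in NS and between 90 and 120 in R788 (-2.11 ± 0.43, adjusted p = 1.02e-05, DESeq2). It was also lower in NB9464 TCM (-2.25 ± 0.43, adjusted p = 1.34e-06). Vegfc had 102 to 113 counts in NS and 0 and 10 in R788 (-4.60 ± 0.60, adjusted p = 5.22e-13), a size that rests on 10 counts in SJ8, since the other R788 library is at 0. In NBT3L TCM it rose to 223 to 307 counts (1.58 ± 0.39, adjusted p = 0.000258), with no such rise seen in NB9464 TCM, at 119 to 138. Vegfa, for VEGF-A, had 862 to 2949 counts and was named after its values were seen, its changes being under the minimum for naming. Its log2 fold change was 0.43 with R788 alone (0.27 without SJ7) and 0.68 with R788 in NBT3L TCM. Vegfa was lower in NBT3L TCM than in NS (-0.78) and higher in NB9464 TCM than in NBT3L TCM (0.76).

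Several calls on Angpt2, Vegfc and Tnc depended on 1 library or tool. Angpt2 was lower in NBT3L TCM than in NS (-1.10 ± 0.43, adjusted p = 0.0301, DESeq2), lost without any 1 of SJ1, SJ2, SJ5 and SJ6 (adjusted p = 0.129, 0.153, 0.0813 and 0.172). It was lower with R788 in NBT3L TCM (-1.62 ± 0.45, adjusted p = 0.00316), lost without SJ5 (0.0704) or SJ12 (0.105). Vegfc was lower with R788 in NBT3L TCM (-1.17 ± 0.39, adjusted p = 0.0219), lost with edgeR (0.127) and without SJ5, SJ6 or SJ11 (0.113, 0.303 and 0.291). Vegfc was lower in NB9464 TCM than in NBT3L TCM (-1.33 ± 0.39, adjusted p = 0.00845), lost with edgeR (0.105) and without SJ3, SJ4, SJ5 or SJ6 (0.0627, 0.138, 0.0847 and 0.243). Tnc, for tenascin-C, fell with R788 in NB9464 TCM (-1.72 ± 0.47, adjusted p = 0.00268), lost without SJ9 (0.142). Osm, for the cytokine oncostatin M, also fell there (-1.22 ± 0.30, adjusted p = 0.000748), a call kept under all 18 alternatives. Exons of Adam17, Furin, Cd9, Irs2, Igfbp7, Thbs1, Tnc and Hgf, among others, share bases with another gene, so these counts are uncertain to that extent. For Adam17, whose called changes were small, 311 bases are shared.

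Over the 12 libraries, which share treatments, the genes most like each member were named by Pearson's r of log2(normalized count + 1) among 10715 genes, as a description. For Edn1 they were Filip1l (r = 0.981), Fcgr2b (0.974), for the inhibitory Fc receptor, and Ankrd33b (0.973). Fcgr2b averaged 3306 normalized counts in NS, 6096 in R788, 11373 in NB9464 TCM and 10500.4 in NB9464 TCM + R788, so the like pattern left out most of the fall with R788. For Igf1 they were Cdca3 (0.996) and Ccnf (0.996), both genes of the late cell cycle, and Mmd (0.995). For Pdgfb they were Slfn9 (0.988) and Mcm7 (0.987) and Mcm10 (0.985), for proteins of DNA replication. Mcm10 averaged 3236 normalized counts in NS, 1726 in R788, 1469 in NB9464 TCM and 828 in NB9464 TCM + R788. Cdca3 averaged 6327 in NS, 3743 in R788, 1182 in NB9464 TCM and 973 in NB9464 TCM + R788.

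For Pdgfa the most alike genes were Gcnt1 (r = 0.996), Itgb7 (0.992), for an integrin chain, and 9930111J21Rik2 (0.989). Those of Hbegf, led by Timm8a1 (0.925), and of Igf1r, led by Acin1 (0.911), were less alike. Among the members themselves, r was 0.920 between Pdgfa and Igf1, 0.905 between Pdgfa and Pdgfb, 0.862 between Pdgfb and Igf1, and -0.893 between Edn1 and Igf1.

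Total counts were between 44977847 and 56449685 per library. The second R788 library (SJ8) had the highest total and 16149 genes with counts, against 17275 to 18343 in the other 11, and results of R788 without TCM rest partly on it. Syk, whose kinase R788 inhibits at the protein level, remained expressed in every group, with a mean of 14987 normalized counts in NS and 44023 in NBT3L TCM + R788, so its RNA does not check the inhibition.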

How the data were processed

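RNA of 12 BMDM libraries was sequenced after poly(A) selection. The values deposited were raw read counts, whole numbers for each Ensembl gene without scaling for depth or length. The authors state that STAR mapped the reads to mm10 at default settings and that Salmon quantified them in bcbio, and the submitters' processing notes name STAR 2.6.1d and Salmon 1.4.0. The layout of the table is that of featureCounts, so the counting program is unclear, and strand use and reads of several origins are not stated. Even values made up 65.2% to 67.9% of counts from 1 to 40 per library, so counts divided by 2 were tried. The authors' methods describe triplicates sequenced as single reads, but each group here holds 2 libraries, so whether reads were paired is unclear. All count columns were used, and groups came from the labels.

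The 16281 genes that reached 10 counts in 2 or more libraries were fitted with DESeq2 1.42.0 in R 4.3.3, with 6 group means over all 12 libraries, unshrunken log2 fold changes, Wald tests and Benjamini-Hochberg adjustment within each contrast. All tests were two-sided. Symbols and positions were those of GENCODE M21 (GRCm38), which held 54165 of 54232 IDs, and promoters those of RefSeq. The procedure was tested on simulated data. The members and lists were chosen with earlier results of these data known. From each list, genes were named when called with an absolute log2 fold change of at least 1 and a mean of at least 100 normalized counts, at most 4 per contrast, and the 3 genes most correlated with each member were named as well. Intervals are 95% Wald intervals unless called exact. Alternatives were edgeR 4.0.16 with TMM scaling, TMM in DESeq2, no filter, a mean of at least 50 counts, only the libraries compared, counts divided by 2, and each library left out in turn.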

Additional observations from a re-analysis of the deposited data

Results flagged for a closer look

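The effect of R788 differed between media for 3 members by a test of the difference itself (DESeq2, log2 scale). Over all genes tested, it differed from that without TCM for 12.5% in NB9464 TCM and 10.1% in NBT3L TCM. These tests use the NS libraries, so they are not independent of the choice of the members. For Igf1 the fall with R788 was smaller in NBT3L TCM than without TCM by 0.39, and smaller in NB9464 TCM by 0.25. For Pdgfa the fall was larger in NBT3L TCM than without TCM by -0.93. For Igf1r the effect in NB9464 TCM was below that without TCM by -1.23. Of these, the difference of Igf1 in NBT3L TCM was the one called under all 18 alternative settings.

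Of the 53 tested list genes, 11 had a different effect of R788 in NB9464 TCM than without TCM, against 12.5% of all genes. In NBT3L TCM 9 did, against 10.1%. The effect in TCM was below that without TCM for Ednrb by -1.72 and -1.39 (NB9464 and NBT3L), for Thbs1 by -1.69 and -1.65, for Irs2 by -0.92 and -1.20, and for Insr by -0.69 and -0.60. It was below also for Rhbdf2 by -0.57 and -0.57, for Igfbp4 by -0.48 and -0.43, and for Furin by -0.37 and -0.44. For Rhbdf1 it was below by -1.32 in NBT3L TCM. It was above for Vegfc by 4.58 and 3.43, sizes that rest on 10 counts in the R788 libraries, and in NB9464 TCM for Angpt2 by 2.02, for Pdgfrb by 1.51 and for Adam10 by 0.23. Those of Thbs1, Vegfc, Rhbdf2 and Igfbp4 in both media, of Ednrb and Insr in NB9464 TCM and of Furin in NBT3L TCM were called under all 18 alternatives, and the others lost the call under 1 or more.

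Edn1 moved in opposite directions with R788 in all libraries of the groups compared. Without TCM it was at least 8.12-fold higher with R788 than the floor of the NS libraries, and with R788 it was lower by a log2 fold change of -2.29 in NB9464 TCM and -1.44 in NBT3L TCM. The difference between these effects was not tested. The NS and NB9464 TCM libraries had helped to choose Edn1. A gene chosen as higher in NB9464 TCM than in NS tends to lie between these 2 groups in others, so the choice favors this pattern.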

How the results depend on the processing

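No called value changed its sign under the alternatives run. Counts of called genes were within 1.5 times of the main count except for those given here. With edgeR, 4 list genes were called between NB9464 TCM and NBT3L TCM, against 10, and 21 genes had a different effect of R788 in the 2 media, against 115, which became 272 with only the libraries compared. With each library left out in turn, the number of genes called for R788 was 1432 to 2885 in NB9464 TCM (lowest without SJ3, and moved also without SJ9 or SJ10) and 1173 to 2566 in NBT3L TCM (moved without SJ5, SJ6, SJ11 or SJ12), where list genes were 4 to 11 (moved without the same 4 libraries). Between the media it was 795 to 2007 genes (moved without SJ3, SJ5 or SJ6) and 4 to 12 list genes (moved without SJ3 or SJ6). The difference in the effect of R788 from no TCM was called for 1344 to 2974 genes in NB9464 TCM (moved without SJ2) and 1038 to 2583 in NBT3L TCM (moved without SJ2, SJ6, SJ7 or SJ12), and that between the media for 46 to 234 (moved without any 1 library except SJ1 and SJ2). Of the values of single genes, 2454 were taken as unchanged. These stayed on the same side of the threshold or, where no p was used, moved by less than the SD between libraries. Of the others, 185 lost a call, 9 gained one and 3, the bounds of Edn1, were halved with halved counts. Leaving out a library leaves its group with 1, which is then assumed to vary like the others.

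No paired analysis was possible because the libraries are numbered through the series and no number is shared between groups. With 2 libraries per group, the p values rest on the variance model. The depth limits Hbegf and the other ligands under about 30 counts, whose changes could not be told from the spread. TMM scaling moved the median of all genes by less than 0.1 on the log2 scale.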
